A study of Mus musculus with 8 samples.

Results

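Sostdc1 and the receptors Lrp4, Lrp5 and Lrp6 were followed in mandibular molar tooth germs of mouse embryos after Hedgehog signalling had been blocked. The members were taken by gene name: every probe set that the platform annotation assigns to exactly 1 of these 4 genes, which gave 6 probe sets for 4 of the 18193 genes with a single-gene probe set. Sostdc1 and Lrp6 each had 2 probe sets, while Lrp4 and Lrp5 each had 1. Both Sostdc1 probe sets were designed from the same database transcript, so they are repeat readings of 1 gene and not replicates.

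The study injected pregnant ICR mice, an outbred stock, once into the peritoneum at embryonic day 14 and dissected the tooth germs 24 hours later. The groups were 5E1 (10 mg/kg), an antibody that binds the Shh protein, 40-1a (10 mg/kg), its isotype-matched control antibody, which binds β-galactosidase, cyclopamine (10 mg/kg), an antagonist of the membrane protein Smo, and PBS (1 ml). Each group had 2 arrays called biological replicates, and no label says which litters or how many embryos went into an array, so the p-values cover only the spread of these samples, which may be technical. The agents were given to the mother, the labels name no engineered allele, and they do not state the vehicle of cyclopamine.

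Sostdc1, also called ectodin, Wise or USAG-1, is a secreted protein of the DAN family that binds BMPs and also binds the outer domains of Lrp4, Lrp5 and Lrp6. Lrp5 and Lrp6 are the co-receptors that Wnt ligands join to Frizzled proteins, which leads to stabilised β-catenin. Lrp4 is a related receptor that binds Sostdc1 and sclerostin, and in muscle it is the receptor for agrin. Mice that lack Sostdc1 or Lrp4 function form extra teeth and fused molars, and Shh, Wnt and Sostdc1 have been placed in a feedback loop that spaces the teeth.

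Values are MAS5 signals on a linear scale, and differences are on the log2(signal + 9) scale, where 9 is about the 10th percentile of all deposited values. Differences were tested with limma over 12999 genes, each represented by its probe set with the highest mean, and adjusted with the Benjamini-Hochberg method at a threshold of 0.05. The epithelial marker Epcam ranged from 2896 to 5169 over the 8 arrays and the dental mesenchyme marker Pax9 from 910.3 to 2119, so both layers of the labelled tissue were present, and the muscle marker Myog ranged from 116 to 616. By correlation over the tested genes other than the members, the arrays fell into 3 clusters that cut across the injections. In cluster 1 were the first replicates of 5E1, 40-1a and PBS. In cluster 2 were the second replicates of 5E1, 40-1a and cyclopamine, which left cyclopamine replicate 1 with PBS replicate 2 in cluster 3. Each antibody thus had 1 array in cluster 1 and 1 in cluster 2, while the arrays of cyclopamine and PBS were spread unevenly. In bulk tissue, fewer cells that express a gene and less RNA per cell cannot be told apart.

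**Figure D1:**
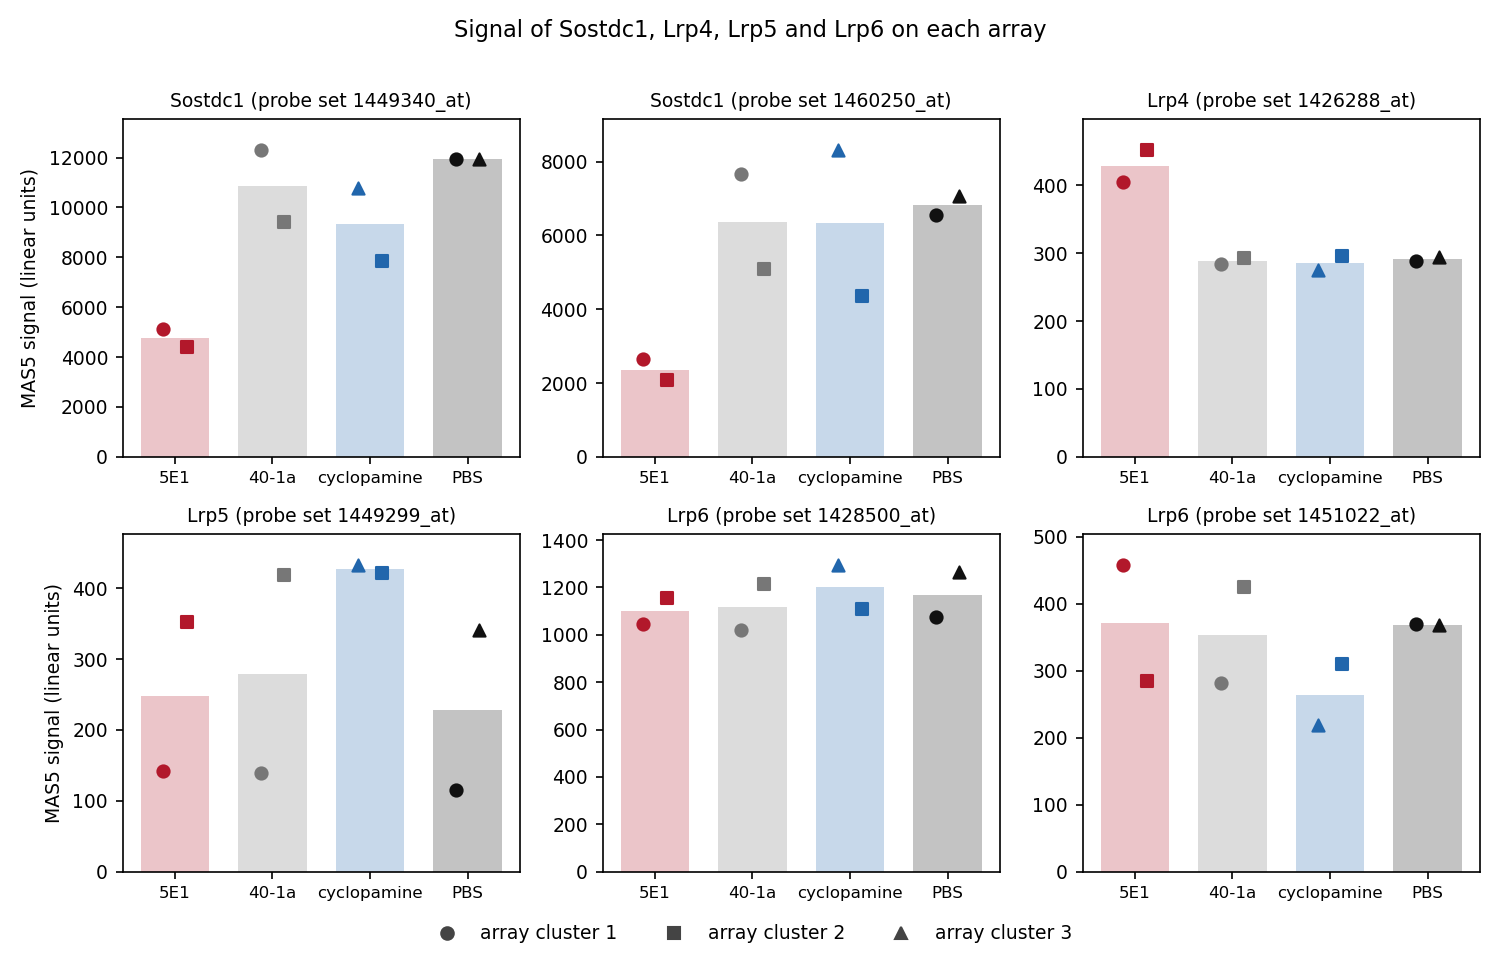
Signal of the 6 probe sets on each array (points, MAS5 signal in linear units) with the mean of the 2 arrays of each group as bars, the marker shape giving the array cluster. Sostdc1 was low and Lrp4 high on both 5E1 arrays, while Lrp5 separated the cluster 1 arrays (115 to 143) from the others (341 to 433).

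The ligand Sostdc1 was lowest after 5E1. Its brighter probe set (1449340_at) had signals of 5146 and 4400.2 on the 5E1 arrays, against 12303 and 9416 on the 40-1a arrays. The cyclopamine arrays read 10765 and 7871, against 11943 and 11923 on the PBS arrays. Both 5E1 arrays lay below all 6 other arrays, and the next lowest was cyclopamine replicate 2. The share of all genes whose 5E1 arrays stood apart from all others was not counted, for this or the similar cases below.

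The dimmer Sostdc1 probe set (1460250_at) gave 2648 and 2076 after 5E1, against 7657 and 5084 after 40-1a. It gave 8318 and 4354 after cyclopamine, against 6566 and 7077 after PBS. The 5E1 arrays were again the lowest of the 8, whereas cyclopamine held both the highest array and the lowest one outside 5E1. The 2 probe sets ran together over the 8 arrays (Pearson's r = 0.977), and over the 6 arrays without 5E1 r was 0.857.

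Between the antibodies, which asks what blocking Shh does with an antibody injection on both sides, Sostdc1 averaged 4773 ± 527 after 5E1 and 10859.6 ± 2041 after 40-1a (SD, n = 2 each). This was 2.26-fold lower after 5E1 (log2 -1.18, SE 0.20, 95% interval -1.63 to -0.72). It ranked 2 by p among the 12999 genes, behind Ptch1, with an unadjusted p of 0.000386 and an adjusted p of 1.00 in limma. Limma called 0 genes in this comparison (0% of those tested), and 158 genes (1.22%) had an unadjusted p under 0.05. Arrays that were all lower after 5E1, with no overlap, were found for 10.8% of genes. In 58 genes (0.446%), Sostdc1 among them, they were also at least 2-fold lower. The dimmer probe set was 2.65-fold lower (log2 -1.41, SE 0.32, unadjusted p = 0.00225 in the limma fit to 23576 probe sets, adjusted p = 1.00).

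The difference was present in both clusters that hold these groups. In cluster 1 it was -1.26 for the brighter and -1.53 for the dimmer probe set, and in cluster 2 it was -1.10 and -1.29, each from 1 pair of arrays. With the array cluster as a block, limma called 3 genes, all lower after 5E1, namely Ptch1, Gli1 and Sostdc1 (adjusted p = 0.0157 for Sostdc1). The adjusted p of Sostdc1 ran from 0.0157 to 1.00 over the alternatives, and the clusters come from the same arrays to which the block was applied.

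Set against PBS, with the same 5E1 arrays, Sostdc1 averaged 4773 ± 527 after 5E1 and 11933 ± 14.3 after PBS (SD, n = 2 each), 2.50-fold lower (log2 -1.32, SE 0.20, 95% interval -1.78 to -0.87). Limma gave an unadjusted p of 0.000176 and an adjusted p of 1.00, with 0 genes called and 193 (1.48%) at an unadjusted p under 0.05. The groups did not overlap, as was so for 12.4% of genes in this direction. The 40-1a and PBS groups, both without a Hedgehog blocker, differed by -0.15 (SE 0.20, 95% interval -0.61 to 0.31), and their arrays overlapped.

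After cyclopamine, Sostdc1 averaged 9318 ± 2047, against 11933 ± 14.3 after PBS (SD, n = 2 each). The log2 difference of -0.37 (SE 0.20, 95% interval -0.83 to 0.084) did not pass (unadjusted p = 0.0960, adjusted p = 0.982 in limma, which called 0 genes). The cyclopamine arrays were both lower than the PBS arrays, as in 14.4% of all genes. On the dimmer probe set they overlapped (log2 -0.18, SE 0.32). Only cluster 3 holds arrays of both groups, and there the values were -0.15 for the brighter and 0.23 for the dimmer probe set. Without cyclopamine replicate 2 the difference was -0.15, and without cyclopamine replicate 1 it was -0.60. Beside it, the dental mesenchyme genes summed to 36092 and 16012 after cyclopamine, against 30551 and 34774 after PBS, with 11 of 12 tested genes lower. Skeletal muscle genes summed to 3714 and 16573 after cyclopamine, against 6379 and 2785 after PBS, with 13 of 14 tested genes higher (median 1.05). Genes of the suprabasal oral epithelium, the outer layers of the mouth lining, were higher in 12 of 12 cases (median 0.51), and dental epithelium genes in 11 of 13 (median 0.28). Between 40-1a and PBS, both without a Hedgehog blocker, dental mesenchyme genes were likewise lower in 12 of 12 cases (median -0.50). Muscle genes were higher there in 10 of 14 cases (median 0.20), suprabasal genes in 12 of 12 (median 0.26) and dental epithelium genes in 11 of 13 (median 0.21). No marker was called, and the part of these tissues in the Sostdc1 value was not tested.

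The antibody effect on Sostdc1 minus the cyclopamine effect, each taken against its own control, was -0.80 on the log2 scale (SE 0.28, 95% interval -1.45 to -0.15). The unadjusted p was 0.0215 and the adjusted p 1.00 in limma, which called 0 genes and gave 187 (1.44%) an unadjusted p under 0.05. Directly, 5E1 lay below cyclopamine by -0.95 (SE 0.20, adjusted p = 1.00). From lowest to highest the mean log2 levels were 12.22 after 5E1, 13.17 after cyclopamine, 13.40 after 40-1a and 13.54 after PBS. The gaps among the last 3 groups were 0.23 and 0.15, smaller than the SD of 0.27 within 40-1a and of 0.32 within cyclopamine.

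Over both blocking agents against both controls, Sostdc1 was at -0.78 (SE 0.14, adjusted p = 1.00 in limma). An exact two-sided permutation of the 8 arrays into 4 and 4, added after the data were seen, gave p = 0.0571, where 0.0286 is the smallest possible. It was run for all 6 probe sets, and the smallest p was this one. The pooled value joins unequal parts. Within cluster 1, where 5E1 was the only blocking agent, it was -1.23, and within cluster 3, where cyclopamine was the only one, it was -0.15. Within cluster 2, which holds both agents and 40-1a, it was -0.68.

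**Figure D2:**
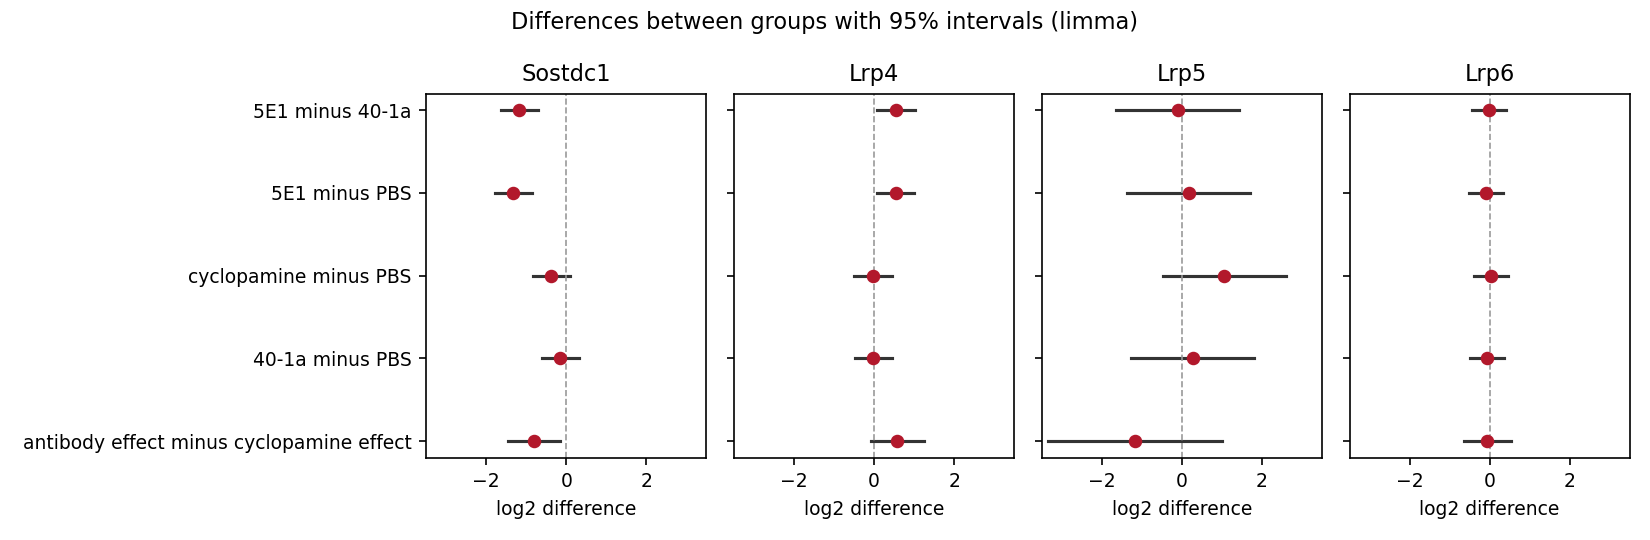
Log2 differences of the 4 genes in 5 comparisons (points) with 95% intervals of the limma fit (lines), the dashed line marking 0. The intervals of Sostdc1 and Lrp4 leave out 0 in both 5E1 comparisons, those of Lrp5 are the widest of the 4 genes, and those of Lrp6 all cover 0.

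Lrp4, the Sostdc1-binding receptor that also serves agrin in muscle, was highest after 5E1. Its 1 probe set (1426288_at) had signals of 404 and 452 on the 5E1 arrays, against 284 and 293 on the 40-1a arrays. The cyclopamine arrays gave 275 and 296, against 289 and 294 on the PBS arrays. The 6 arrays without 5E1 thus lay between 275 and 296, and both 5E1 arrays lay above them.

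Lrp4 averaged 428 ± 33.6 after 5E1 and 288 ± 6.85 after 40-1a (SD, n = 2 each), 1.47-fold higher after 5E1 (log2 0.55, SE 0.20, 95% interval 0.084 to 1.02). Limma gave an unadjusted p of 0.0266 and an adjusted p of 1.00, so it did not pass. Its arrays were all higher after 5E1, as in 8.65% of all genes. Against PBS the difference was 0.54 (SE 0.20, unadjusted p = 0.0299, adjusted p = 1.00), with no overlap, as in 9.95% of all genes in this direction. Both comparisons share the 5E1 arrays. In clusters 1 and 2 the 5E1 array exceeded the 40-1a array by 0.50 and 0.61.

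After cyclopamine Lrp4 averaged 286 ± 15.0, against 292 ± 3.86 after PBS (SD, n = 2 each). The log2 difference was -0.030 (SE 0.20, 95% interval -0.50 to 0.44), and its sign turned under quantile normalisation (0.080) and median centring (0.099). The 40-1a and PBS groups differed by -0.016 (SE 0.20). The antibody effect minus the cyclopamine effect was 0.58 (SE 0.29, 95% interval -0.081 to 1.25, unadjusted p = 0.0774, adjusted p = 1.00 in limma). In order of level, 5E1 stood 0.54 above PBS on the log2 scale, and PBS, 40-1a and cyclopamine lay within 0.030 of each other.

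Tissue markers were read beside the Sostdc1 and Lrp4 values. The 12 enamel knot genes of the epithelial signalling centre summed to 13868 and 18600.3 on the 5E1 arrays, against 9707 and 13141 on the 40-1a arrays, and all 11 tested were higher on average after 5E1 with 0 called. The 12 dental mesenchyme genes summed to 30908 and 9693 after 5E1, against 31645 and 17773 after 40-1a, with 10 of 12 lower and 0 called. The 13 dental epithelium genes summed to 54197 and 80364 after 5E1, against 52445 and 77569.6 after 40-1a, with 8 of 13 higher. The 15 skeletal muscle genes, a source of Lrp4 in other tissue, summed to 5537 and 6463 after 5E1, against 1657 and 13903 after 40-1a, with 10 of 14 tested genes higher. Suprabasal oral epithelium genes were lower in 7 of 12 cases. Between 5E1 and PBS the dental mesenchyme genes were lower in 12 of 12 cases (median -0.87, against -0.30 between 5E1 and 40-1a) and the endothelial genes in 8 of 8. In that comparison 12 of 13 dental epithelium genes, 9 of 11 enamel knot genes and 12 of 14 muscle genes were higher, with 0 called. Of all tested genes 47.3% were higher there. Between 40-1a and PBS, both without a Hedgehog blocker, dental mesenchyme genes were also lower in 12 of 12 cases (median -0.50) and endothelial genes in 8 of 8. Higher there were 11 of 13 dental epithelium, 12 of 12 suprabasal, 10 of 14 muscle and 7 of 11 enamel knot genes. The part of these tissues in the Sostdc1 and Lrp4 differences was not tested. The enamel knot list shares many genes with other lists here, so their counts are not separate results. Fgf4, Fgf20, Edar, Lef1, Wnt10a and Wnt10b are also in the Wnt/β-catenin list given below. Dkk4 is also among the surface regulators of Lrp5 and Lrp6, Bmp2 among the BMP ligands and Shh among the Hedgehog genes. Shh, Fgf20 and Edar are dental epithelium genes here too.

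**Figure D3:**
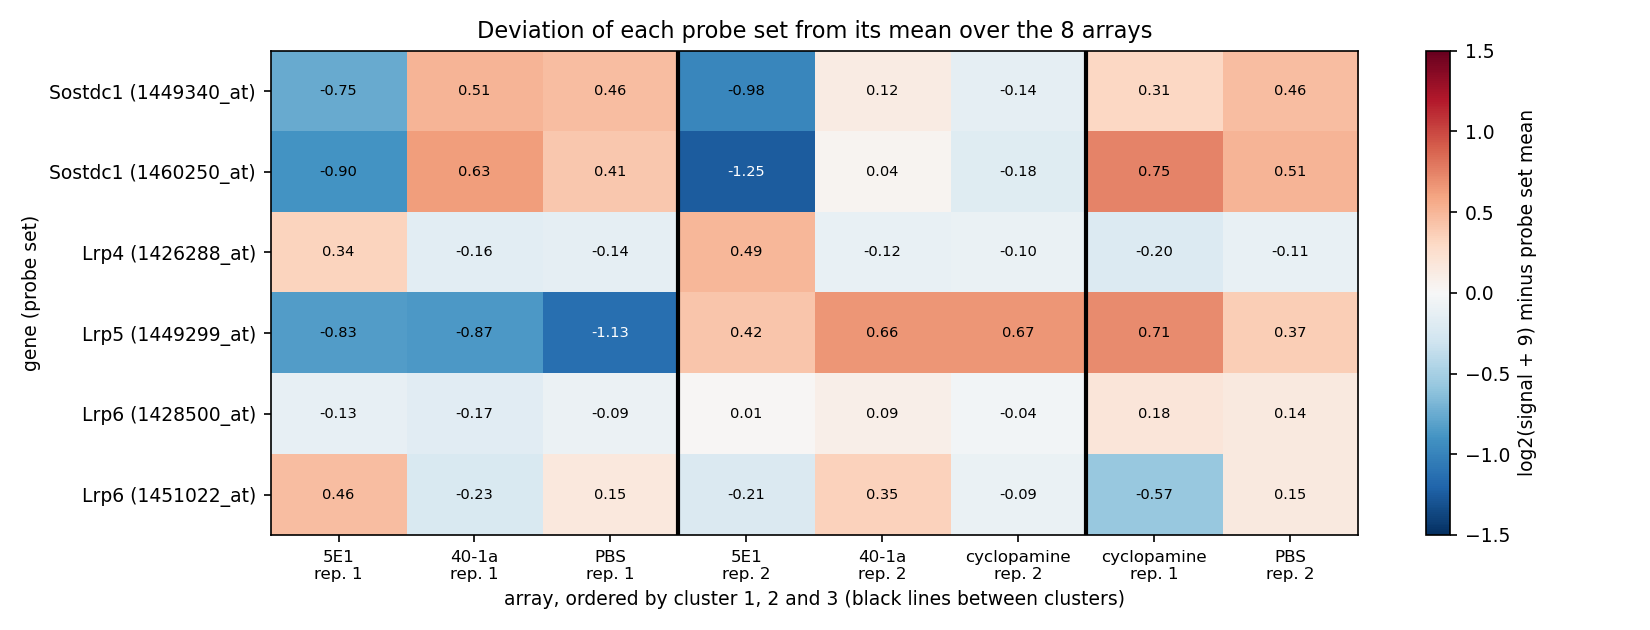
Deviation of each probe set from its own mean over the 8 arrays, in log2(signal + 9), with arrays ordered by cluster. Sostdc1 and Lrp4 stand out in the 5E1 columns, Lrp5 divides cluster 1 from clusters 2 and 3, and the 2 Lrp6 probe sets differ in pattern.

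Lrp5, a Wnt co-receptor, differed more between cluster 1 and the other arrays than between the antibody groups. Its 1 probe set (1449299_at) had signals of 143 and 352 after 5E1, against 139 and 419 after 40-1a. They were 433 and 421 after cyclopamine, against 115 and 341 after PBS. The 3 arrays of cluster 1 were the lowest, at 115 to 143, and the 5 other arrays lay between 341 and 433.

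Between the antibodies Lrp5 averaged 248 ± 148 after 5E1 and 279 ± 198 after 40-1a (SD, n = 2 each), a log2 difference of -0.11 (SE 0.66, 95% interval -1.64 to 1.43). Within the pairs of clusters 1 and 2 the difference was 0.032 and -0.24. Leaving out 40-1a replicate 2 gave 0.66, leaving out 5E1 replicate 1 gave 0.52 and leaving out 40-1a replicate 1 gave -0.87, so the sign was set by single arrays.

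Cyclopamine gave 427 ± 8.58, against 228 ± 159.8 after PBS (SD, n = 2 each), a log2 difference of 1.06 (SE 0.66, 95% interval -0.47 to 2.60). Both cyclopamine arrays lay above both PBS arrays, as in 17.8% of genes. Limma did not call it (unadjusted p = 0.148, adjusted p = 0.982). Neither cyclopamine array lay in cluster 1, whereas PBS replicate 1 did, and without that array the difference was 0.32. Within cluster 3 it was 0.34, and with the array cluster as a block it was 0.36 (SE 0.22). The cluster 1 arrays also had the highest median signals over all probe sets, 115 to 128 against 92.3 to 103 on the others, and the lowest dental epithelium sums, 48734 to 54197 against 57359 to 80364. The muscle and suprabasal genes that were higher after cyclopamine are given above with Sostdc1. The part of these measures in the Lrp5 values was not tested.

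Lrp6, the second Wnt co-receptor, differed little between groups on its brighter probe set (1428500_at). Its signals were 1047 and 1154 after 5E1, against 1018 and 1214 after 40-1a. They were 1295 and 1108 after cyclopamine, against 1075 and 1263 after PBS. All groups overlapped, and the 8 arrays spanned 1018 to 1295.

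The Lrp6 log2 difference was -0.017 for 5E1 minus 40-1a (SE 0.18, 95% interval -0.44 to 0.40). It was 0.039 for cyclopamine minus PBS (SE 0.18, 95% interval -0.38 to 0.46). On this brighter probe set the intervals leave out a change of 2-fold in either direction but cover smaller ones. Both values changed sign under some alternatives. The interval of the dimmer probe set after cyclopamine, given below, does cover a 2-fold decrease.

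The dimmer Lrp6 probe set (1451022_at) read 458 and 284 after 5E1, against 281 and 425 after 40-1a, with opposite differences of 0.69 and -0.57 in clusters 1 and 2. After cyclopamine it read 219 and 309, against 369 and 368 after PBS (log2 -0.49, SE 0.33, 95% interval -1.25 to 0.28, adjusted p = 0.965 in the probe set fit). The cyclopamine arrays lay below the PBS arrays here, as in 14.4% of all genes in the gene fit, but not on the brighter probe set. The 2 Lrp6 probe sets did not run together (r = -0.27 over 8 arrays), so no direction is given for Lrp6.

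The arrays' own check of the block was Ptch1, the Hedgehog receptor that the pathway induces. It had signals of 2122 and 1553 after 5E1, against 11322 and 7180.1 after 40-1a (log2 -2.31, SE 0.30, adjusted p = 0.968 in limma). After cyclopamine it had 9683 and 5793, against 9611 and 8474 after PBS (log2 -0.27, SE 0.30, adjusted p = 0.982). Gli1, an effector that the pathway also induces, was at -2.22 (SE 0.40) for 5E1 minus 40-1a and 0.082 (SE 0.40) for cyclopamine minus PBS. Hhip, a Hedgehog-binding antagonist, was at -1.58 (SE 0.46) and -0.63 (SE 0.46) in these comparisons. Without 40-1a replicate 1 the first was -1.04, and without cyclopamine replicate 2 the second was -0.22. Hhip signals were 35.0 and 31.5 after 5E1, both below the gene filter level of 60.5, against 176 and 77.7 after 40-1a. They were 167 and 90.7 after cyclopamine, against 236 and 162 after PBS. With 1 or 32 added to the signal before the log2 step, the 5E1 difference was -1.79 or -1.21. Between 40-1a and PBS, both without a Hedgehog blocker, Hhip was at -0.69 (SE 0.46), a larger difference than after cyclopamine. Shh, the ligand, was at 0.52 (SE 0.27) for 5E1 minus 40-1a, or 0.22 without 40-1a replicate 1. It was at -0.037 (SE 0.27) for cyclopamine minus PBS. None of these passed over all genes, and the sign of Ptch1, Gli1 and Shh after cyclopamine turned under at least 1 alternative. With the mean of probe sets the cyclopamine differences were larger, at -0.55 for Ptch1, -0.997 for Hhip and -0.41 for Shh. In Ptch1 as in Sostdc1, both 5E1 arrays lay below the 6 others.

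Patterns like those of the members were sought among the 12998 other tested genes by Pearson's r over the 8 arrays. The gene most like Sostdc1 was Ptch1 (r = 0.986, and 0.917 over the 6 arrays without 5E1). It was followed by Galt, an enzyme of galactose metabolism (0.964), Kcna7, a potassium channel (0.961), Plppr1 (0.961) and Creb3l3, a transcription factor (0.961). Gli1 ranked 50 with r = 0.869. Without 5E1 the 4 genes after Ptch1 had r between 0.728 (Plppr1) and 0.919 (Creb3l3). Among the 6 arrays without 5E1, Ptch1 and Sostdc1 were both lowest on cyclopamine replicate 2 and 40-1a replicate 2, in cluster 2. Ptch1 read 5793 and 7180 there, and Sostdc1 7871 and 9416. The dental mesenchyme genes summed to 16012 and 17773 on these arrays, against 30551 to 36092 on the others without 5E1. The part of cluster and tissue in these r values was not tested.

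Lrp4 ran against Ptch1, which had the lowest r of all 12998 genes (-0.978, and -0.711 over the 6 arrays without 5E1). Most like Lrp4 were Bnc1, a zinc finger gene of basal epithelium (0.946), Dusp6, a phosphatase induced by FGF signalling (0.936), and Slc34a1, a phosphate transporter (0.933). Over the 6 arrays without 5E1 these values were 0.504, 0.386 and 0.355, so they rest on the 5E1 arrays. Slc34a1 read only 53.4 to 88.6 over the 8 arrays, near the filter level of 60.5. Between Sostdc1 and Lrp4 r was -0.941 with the brighter Sostdc1 probe set, and -0.433 without 5E1. With the dimmer probe set it was -0.944, and -0.784 without 5E1. All points share RNA and array between the genes compared, and 8 arrays of 4 groups are few.

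**Figure D4:**
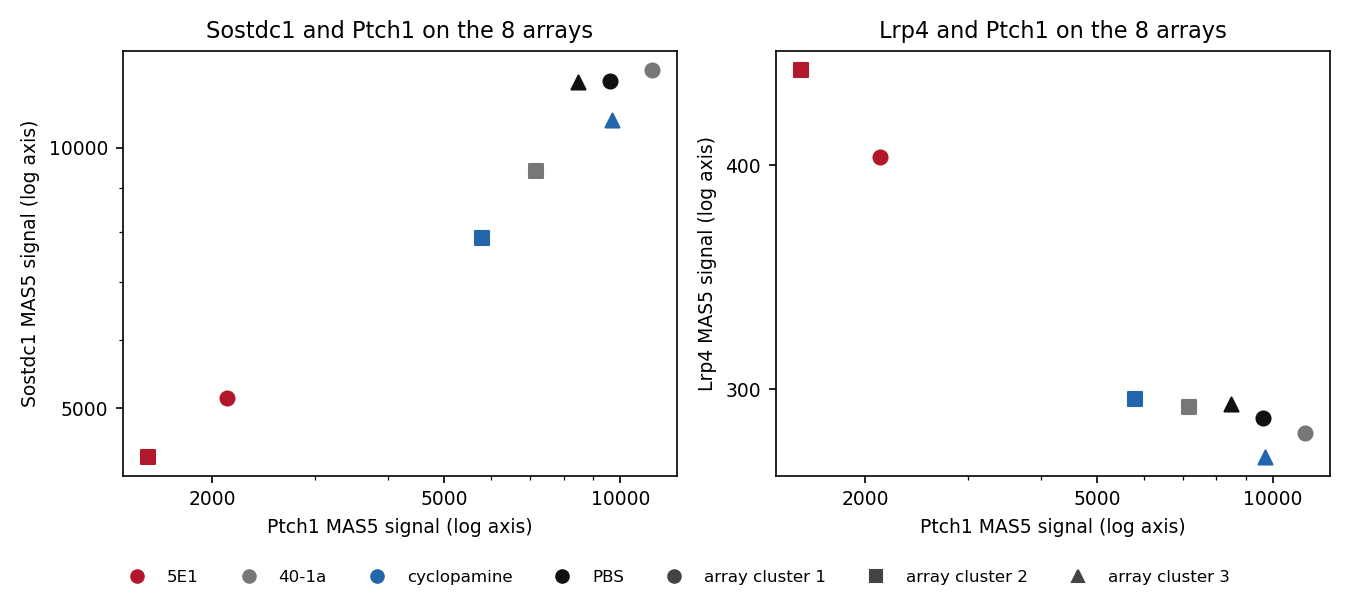
Sostdc1 (left) and Lrp4 (right) signals against the Ptch1 signal on each of the 8 arrays, on log axes, with colour for the injection and shape for the array cluster. The 5E1 arrays stand apart at low Ptch1 (1553 and 2122), with Sostdc1 at 4400.2 and 5146 and Lrp4 at 452 and 404.

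Lrp5 was most like Wtip (r = 0.996), Sumo3 (0.994) and Baz1b (0.993), and without 5E1 these values were 0.998, 0.994 and 0.992. Wtip had 1165, 1205 and 1132 on the cluster 1 arrays of 5E1, 40-1a and PBS, and 1716 to 1984 on the 5 others. Lrp6 was most like Ptpn9 (0.987), Naa60 (0.980) and Ctdsp1 (0.976). Lrp5 and the brighter Lrp6 probe set had r = 0.793. Against Ptch1, r was -0.052 for Lrp5 and 0.178 for Lrp6 over the 8 arrays. Over the 6 arrays without 5E1 it was -0.656 for Lrp5 and -0.195 for Lrp6.

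Partners of these proteins were read from gene lists, whose members were chosen with earlier results of these data known, and limma called 0 genes of any list in any comparison. Beside them, 46.6% of all tested genes were higher after 5E1 than after 40-1a, with a median of -0.013, and 53.1% were higher after cyclopamine than after PBS, with a median of 0.022. An unadjusted p under 0.05 was seen for 1.22% of genes in the 5E1 comparison and 1.58% in the cyclopamine comparison.

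Of 13 Wnt receptors, the Frizzled, Ror and Ryk genes that act beside Lrp5 and Lrp6, 7 were higher and 6 lower after 5E1 than after 40-1a (median 0.18), with 0 at an unadjusted p under 0.05. Ror1, a Wnt5a receptor, was at 0.30 (SE 0.19) and Fzd2 at -0.33 (SE 0.22). After cyclopamine 6 were higher and 7 lower than after PBS (median -0.099), with Fzd3 at 0.59 (SE 0.19). With the mean of its probe sets Fzd3 was at 0.037.

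Of the 9 other LDL receptor family genes tested, 4 were higher and 5 lower after 5E1 (median -0.036). Lrp11 read 268 and 343 after 5E1, against 180.4 and 213 after 40-1a (log2 0.61, SE 0.24, unadjusted p = 0.0381, adjusted p = 1.00), and Lrp1, an endocytic receptor, was at -0.21 (SE 0.19). After cyclopamine Lrp11 read 305 and 279.8, against 188 and 212 after PBS (log2 0.53, SE 0.24, adjusted p = 0.982), while 3 of the 9 genes were higher (median -0.11).

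Among 16 genes listed here as ligands and surface regulators of Lrp5 and Lrp6, 7 were higher and 9 lower after 5E1 (median -0.064). Apcdd1, a membrane inhibitor of Wnt signalling, was at 0.79 (SE 0.27, unadjusted p = 0.0198), but at 0.32 with the mean of its probe sets. Rspo2, a secreted enhancer of Wnt signalling, read 1206 and 472 after 5E1, against 1302 and 1439 after 40-1a (log2 -0.85, SE 0.37), and was at -0.18 without 5E1 replicate 2. After cyclopamine 4 were higher and 12 lower than after PBS (median -0.28), with Dkk3 at -0.92 (SE 0.25, unadjusted p = 0.00619, adjusted p = 0.982 in limma). Dkk3 was listed as a Dickkopf family member, and whether it acts on Lrp5 or Lrp6 was not examined here. The control antibody 40-1a also lay below PBS, with 2 higher and 14 lower (median -0.20). Sost, which encodes sclerostin, the nearest relative of Sostdc1, lay below the filter level of 60.5 on all 8 arrays, between 19.9 and 51.9, and was not tested.

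Of 16 genes of the machinery that acts inside the cell on Lrp5 and Lrp6, 8 were higher and 8 lower after 5E1 (median 0.0016), between -0.31 and 0.28, with Gsk3a, a kinase that phosphorylates β-catenin, at -0.31 (SE 0.17) and Caprin2 at 0.22 (SE 0.25). After cyclopamine 7 were higher and 9 lower (median -0.033), with Dab2, an endocytic adaptor, at -0.63 (SE 0.34). Genes that answer to Wnt/β-catenin were higher after 5E1 than after 40-1a in 13 of 16 cases (median 0.24). This count overlaps with that of the enamel knot genes, which share Fgf4, Fgf20, Edar, Lef1, Wnt10a and Wnt10b with this list. The same 5E1 arrays were above PBS in 9 of 16 (median 0.033), and 40-1a itself lay below PBS in 12 of 16 (median -0.11). Among them Myc was at 0.55 (SE 0.19, unadjusted p = 0.0224) and Fgf20, an enamel knot signal, at 1.12 (SE 0.50) but 0.51 without 5E1 replicate 2. After cyclopamine 8 were higher and 8 lower (median -0.0063), with Nkd1, a feedback inhibitor, at -1.01 (SE 0.50). Nkd1 was at -0.43 with the array cluster block and -0.62 without cyclopamine replicate 2.

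For the BMP side of Sostdc1, 7 of 11 ligands and receptors were higher after 5E1 (median 0.014). The ligand Bmp2 read 621 and 606 after 5E1, against 373 and 335 after 40-1a (log2 0.78, SE 0.23, unadjusted p = 0.00963, adjusted p = 1.00). Bmp7 was at 0.60 (SE 0.22, unadjusted p = 0.0249). Bmp4, named after its values were seen as the lowest of the list, read 2371 and 883 after 5E1, against 2675 and 2132 after 40-1a (log2 -0.72). Against PBS, with 2609 and 3401, its difference was -1.04. The Bmp4 arrays of 5E1 and 40-1a overlapped, and the low value was that of 5E1 replicate 2. Bmp4 is also in the dental mesenchyme list, whose sum was lowest on that array (9693, against 30908 on 5E1 replicate 1). The part of this tissue in the Bmp4 values was not tested. After cyclopamine 5 of 11 were higher (median -0.0082), with the receptor Acvr1 at -0.24 (SE 0.15).

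Of 9 other BMP antagonists tested, 7 were lower after 5E1 (median -0.16), with Twsg1 at -0.21 (SE 0.15) and Fst, which encodes follistatin, at 0.39 (SE 0.20). Fst was at 0.12 without 5E1 replicate 2, and Twsg1 at -0.062 without the probe sets whose names end in _x_at or _s_at. After cyclopamine 6 were lower (median -0.12), with Grem1, a relative of Sostdc1 in the DAN family, at -0.58 (SE 0.37). Of 9 BMP target genes, 5 were lower after 5E1 (median -0.049), with Id4 at -0.39 (SE 0.16, unadjusted p = 0.0360) and Msx2 at -0.15 (SE 0.23). After cyclopamine 7 were lower (median -0.087), with Id2 at -0.58 (SE 0.23, unadjusted p = 0.0376). Between 40-1a and PBS 7 of the 9 were lower too (median -0.10).

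The agrin and MuSK genes that work with Lrp4 at the nerve-muscle contact had 5 tested members, 2 higher and 3 lower after 5E1 (median -0.081). Dok7, a MuSK activator, was at -0.23 (SE 0.27) and the acetylcholine receptor subunit Chrnb1 at -0.14 (SE 0.39). After cyclopamine Agrn, which encodes agrin, was at 0.42 (SE 0.25), with 3 of 5 genes higher (median 0.070). Of 11 Hedgehog pathway genes, 6 were lower after 5E1, and 3 of these had an unadjusted p under 0.05. After cyclopamine 6 were lower and 0 had one, with Sufu, a Gli inhibitor, at 0.28 (SE 0.19).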

How the data were processed

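The members and gene lists were chosen with earlier results of these data known. Each deposited value is the intensity of a probe set in linear units, for which the submitters' processing notes name MAS5. Its version, its scaling target and a genome build were not given in the sources used here. With 2% trimmed at each end, the arrays had a mean signal of about 500.0 each, and they were left on that scale. The number of arrays limits the precision.

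Of 45101 probe sets, 34945 had exactly 1 gene in the platform annotation of 2016, 932 had several, 9160 had none and 64 were controls. Symbols were updated by gene ID through the RefSeq gene table of GRCm38.p6. By mean log2(signal + 9) over the arrays, the highest probe set stood for each of 18193 genes, and genes under the 40th percentile over the whole table (log2 6.12, signal 60.5) were left out, leaving 12999. All 4 members passed. Limma 3.58.1 in R 4.3.3 fitted the 4 group means to all 8 arrays, with a trend and 4 residual degrees of freedom, after a test on simulated data. A second fit took 23576 single probe sets. Clusters came from average linkage on 1 minus r.

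Named genes were all members, 4 checks of the block, from each list the 2 smallest p values in the 5E1 comparison and the smallest in the cyclopamine comparison, and the 5 (Sostdc1) or 3 (each Lrp) genes with the highest r. Mesd had no single-gene probe set and was not analysed here. The remarks on Ptch1 as the lowest r for Lrp4, and on the Sost level, were not picked by that ranking. Alternatives covered normalisation, pseudocount, filter, variance model, probe set rule, blocks, arrays left out and the compared groups alone.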

Additional observations from a re-analysis of the deposited data

How the results depend on the processing

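With 2 arrays a group, a difference of the size seen in Sostdc1 did not reach the threshold over 12999 genes in the limma fit of group means. Sostdc1 kept its direction in 5E1 minus 40-1a under all 21 alternatives, and ran from -1.37 to -0.98 with 1 array left out. It was called only with the array cluster block (-1.18, adjusted p = 0.0157). That block called 3 genes in 5E1 minus 40-1a, 2 in 5E1 minus PBS, 2 for both agents against both controls, 3 for the antibody effect minus the cyclopamine effect and 2 in 5E1 minus cyclopamine, in place of 0. The labels name no pairing, and same-numbered arrays deviated together in 5 of 6 pairs of groups (r from 0.324 to 0.592) but not in cyclopamine and PBS (0.0016), so numbers were not taken as pairs. The replicate block called 1 gene, Ptch1, in 5E1 minus 40-1a, 5E1 minus PBS, both agents against both controls and 5E1 minus cyclopamine, in place of 0 each. With it Sostdc1 was at -1.18 in 5E1 minus 40-1a (adjusted p = 0.163).

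Of 580 member values under alternatives, 38 changed sign, and no member difference had passed in the main fit. Lrp6 was at 0.060 with median centring and 0.021 with the mean of probe sets in 5E1 minus 40-1a. Averaging the probe sets put it at -0.22 in cyclopamine minus PBS, -0.10 for both agents, 0.24 for the difference of effects and 0.17 in 5E1 minus cyclopamine. With the array cluster block these were -0.039, -0.028, 0.023 and 0.030, and in 40-1a minus PBS Lrp6 was at 0.0073 and Sostdc1 at 0.047. In cyclopamine minus PBS Lrp4 was at 0.080 with quantile normalisation and 0.099 with median centring. With 1 array left out, Lrp5 ran from -0.87 to 0.66 in 5E1 minus 40-1a, -0.58 to 0.92 in 5E1 minus PBS and -0.49 to 1.04 in 40-1a minus PBS. Lrp6 ran from -0.14 to 0.11, -0.20 to 0.032 and -0.19 to 0.059 in these, from -0.076 to 0.16 in cyclopamine minus PBS, -0.051 to 0.074 for both agents and -0.18 to 0.070 for the difference of effects. Lrp4 ran from -0.081 to 0.022 in cyclopamine minus PBS and -0.039 to 0.0076 in 40-1a minus PBS, where Sostdc1 ran from -0.34 to 0.044. Of 36 other named results, 8 changed sign. With the mean of probe sets Msx2 was at 0.095, Dok7 at 0.012 and Sufu at -0.19. After cyclopamine Ptch1 was at 0.045 and Gli1 at -0.12 with the array cluster block, and Shh at 0.091 with median centring. With 1 array left out the ranges were -0.64 to 0.10 for Ptch1, -0.42 to 0.58 for Gli1 and -0.29 to 0.21 for Shh after cyclopamine, and -0.054 to 0.49 for Caprin2, -0.31 to 0.0048 for Msx2, -0.47 to 0.021 for Dok7 and -0.34 to 0.056 for Chrnb1 after 5E1. Without a change of sign, values shrank by over 1.5 times in Bmp7 (0.39) and Gsk3a (-0.19) without 40-1a replicate 1, and in Lrp1 (-0.14) and Acvr1 (-0.11) with median centring. They did so in Dkk3 (-0.58) and Agrn (0.12) with the mean of probe sets, and in Dab2 (-0.25) and Id2 (-0.35) with the array cluster block. The cause of these changes was not tested.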
